A study of Mus musculus with 4 samples.

Results

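The 10 genes described here were *Fos*, *Fosb*, *Jun*, *Junb*, *Egr1*, *Ier2*, *Atf3*, *Npas4*, *Arc*, and *Nr4a1*, all immediate early genes. They were chosen by symbol, each matched exactly 1 of the 32285 genes in the deposited matrices, and all 10 were detected in every library. Immediate early genes are transcribed within minutes of a stimulus without new protein synthesis, when kinases of the MAPK and calcium pathways act on factors already bound at their promoters, such as SRF and CREB. Most encode transcription factors that turn on later response genes. In neurons they are widely read as a record of recent activity, in glia they respond to growth factors and injury, and enzymatic dissociation of living tissue is itself known to induce them.

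The cells came from the forebrain of C57BL/6 mice at postnatal day 5 (P5). Control mice were NestinCreERT2/tdTomato/Chd8+/+ and mutant mice NestinCreERT2/tdTomato/Chd8+/F, in which the F allele of *Chd8*, a chromatin remodeler gene linked to autism, is floxed. All animals carried the same CreERT2 driver and tdTomato reporter and had received tamoxifen at the midfetal stage, and by design they differed in *Chd8*. Cre was under Nestin regulatory sequence, which is active in neural progenitors. The tdTomato-positive cells were sorted after papain dissociation, to select cells with a recombined reporter rather than the whole forebrain. By their markers the sorted cells still included microglia, border macrophages, and endothelial cells. Whether *Chd8* was recombined in the cells of each class was not tested. Each genotype had 2 libraries (replicates 1 and 2), each pooled from 3 mice, and the label calls the cells neuronal. The deposited 3′ counts of *Chd8* (61.7 and 89.8 CPM in control, 68.7 and 94.9 in mutant, where CPM is counts per 1000000 counts) do not read the deleted part of the gene and check no label.

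After the filters on depth and mitochondrial share, 17623 cells remained, 5710 and 2973 in control replicates 1 and 2 and 5659 and 3281 in the mutant ones. They held 37355364 to 73584401 unique molecular identifiers (UMIs, 1 per captured RNA molecule) per library, with a median of 11497 to 11838 per cell. The data went against the label: clusters with neuronal lineage markers held 2706 inhibitory lineage cells, 1132 dividing inhibitory lineage cells, 942 excitatory neurons and 557 excitatory precursors, and the remaining cells were mostly glia. Names of classes were given from marker lists, so each stands for cells that are astrocyte-like, microglia-like and so on, and 13 classes with at least 20 cells in every library entered the tests. The replicates stood apart from each other whatever the genotype. The headers name Cell Ranger 7.0.0 for both replicate 1 matrices and 5.0.1 for both replicate 2 matrices, 9.38% and 12.3% of the barcodes in replicate 1 and 44.0% and 37.8% in replicate 2 lay over the mitochondrial limit, and the share of UMIs on intron-rich genes was 18.2% and 18.5% in replicate 1 and 7.40% and 7.09% in replicate 2. Between any pair of libraries, 8 to 21 deposited barcodes were shared.

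To show the sequence elements through which these genes are known to respond, the 250 bases before the annotated start are given below for 4 of them, *Fos*, *Nr4a1*, *Npas4*, and *Atf3*. They include the 3 members with 2 or more copies of the core of the cAMP response element, the site of CREB, and the stress-induced *Atf3*. The sequences are from RefSeq (build GRCm38.p6), 5′ to 3′ on the strand of the gene, and capitals mark each copy of that core, which reads TGACG on either strand. The windows lie at chr12:85473640-85473889 on the + strand (*Fos*), chr15:101266596-101266845 on the + strand (*Nr4a1*), chr19:4989972-4990221 on the − strand (*Npas4*), and chr1:191183334-191183583 on the − strand (*Atf3*).
Fos: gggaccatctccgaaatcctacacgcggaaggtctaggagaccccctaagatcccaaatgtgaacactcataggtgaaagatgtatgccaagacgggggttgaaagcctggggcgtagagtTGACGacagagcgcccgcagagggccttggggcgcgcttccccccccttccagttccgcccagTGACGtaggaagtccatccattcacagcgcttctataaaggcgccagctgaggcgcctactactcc
Nr4a1: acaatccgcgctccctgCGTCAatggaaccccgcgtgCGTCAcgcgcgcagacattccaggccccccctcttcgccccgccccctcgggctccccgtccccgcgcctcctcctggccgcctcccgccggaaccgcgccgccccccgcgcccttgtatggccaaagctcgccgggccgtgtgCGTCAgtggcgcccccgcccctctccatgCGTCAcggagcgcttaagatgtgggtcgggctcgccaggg
Npas4: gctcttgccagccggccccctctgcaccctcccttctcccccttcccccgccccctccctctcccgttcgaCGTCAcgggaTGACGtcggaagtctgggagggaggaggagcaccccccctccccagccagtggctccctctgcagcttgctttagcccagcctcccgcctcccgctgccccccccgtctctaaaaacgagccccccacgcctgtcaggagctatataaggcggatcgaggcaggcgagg
Atf3: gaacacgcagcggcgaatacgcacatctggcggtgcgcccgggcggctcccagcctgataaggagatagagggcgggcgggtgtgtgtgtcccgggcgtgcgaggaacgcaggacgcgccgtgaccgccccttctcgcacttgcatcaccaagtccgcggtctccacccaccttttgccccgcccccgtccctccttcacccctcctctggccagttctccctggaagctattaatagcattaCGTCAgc
The *Fos* window held 2 copies of the core, the nearer starting 66 bases before the start, with a TATA box (TATAAA) 33 bases before it. The *Nr4a1* window held 4 copies, the nearest 40 bases before the start, the *Npas4* window 2, the nearer at 169 bases, and the *Atf3* window 1, at 7 bases. In *Nr4a1*, *Atf3*, and *Npas4* the RefSeq start and the window before it lie inside the gene as annotated in the matrices' build, so each has an annotated start farther upstream.

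RefSeq promoter entries were found for 7 of the 10 members, which leaves *Ier2*, *Arc*, and *Egr1* named only. The core was found in 6 of these 7 windows (all but *Jun*), against 17.8% of the 32851 promoter windows searched, and 2 or more copies in 3 of them against 3.90%. The full palindromic element TGACGTCA, which contains the core on both strands, was found in 0 of 7 windows (1.55% of all windows), the AP-1 site TGANTCA in 0 (6.75%), and the CArG box of SRF in 0 (1.47%). The EGR site GCGNGGGCG was found in *Fosb* and *Nr4a1* (4.70% of all windows), and TATAAA in *Fos* alone (12.4%), both searched on either strand. A missing match says only that those letters are not in these 250 bases.

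Summed over the 10 genes, expression was highest in glial and ependymal cells rather than in neurons, and of the single genes *Npas4* alone was highest in a neuronal class. Orders of classes cover the 13 classes tested. Levels are given throughout as CPM of the UMIs summed over the cells of a class in each library, in the order control 1, control 2, mutant 1, mutant 2, and classes are compared only within a gene. The classes came from clustering the same cells, so differences between classes are descriptions and carry no test. The summed level of the 10 genes was 2910, 3491, 2880.0, and 3449 CPM in ependymal cells (mean 3182, SD 333, n = 4 libraries), the ciliated cells that line the ventricles. Next came microglia at 2871, 2012, 3773, and 2937, neural stem cells at a mean of 2766 (2257 to 3026), and astrocytes at 2656, 2596, 2416, and 2591 (mean 2565, SD 103). Each of these 4 classes overlapped its neighbour in this order, although every ependymal library lay above every astrocyte library, and all stood above dividing astrocytes, whose mean was 1535. Lowest of all were committed oligodendrocyte precursors and oligodendrocytes, at 207, 350.3, 119, and 206 (mean 221, SD 95.8), below every library of every other class tested. Astrocytes and oligodendrocyte precursor cells (OPCs) share a glial fate yet differed by 1.62 ± 0.19 on the log2 scale (SD, n = 4 libraries) in the summed level.

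Neurons lay in the lower part of this order. The summed level averaged 962 CPM in the inhibitory lineage (663 to 1301), 807 in excitatory neurons (698 to 987), 747 in excitatory precursors (609 to 864), and 841 in OPCs (668 to 988), and the ranges of these 4 classes overlapped. In 7 of the 10 genes the committed oligodendrocyte class was the lowest. Whether these levels arose in the animal or during dissociation and sorting cannot be told apart.

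**Figure D1:**
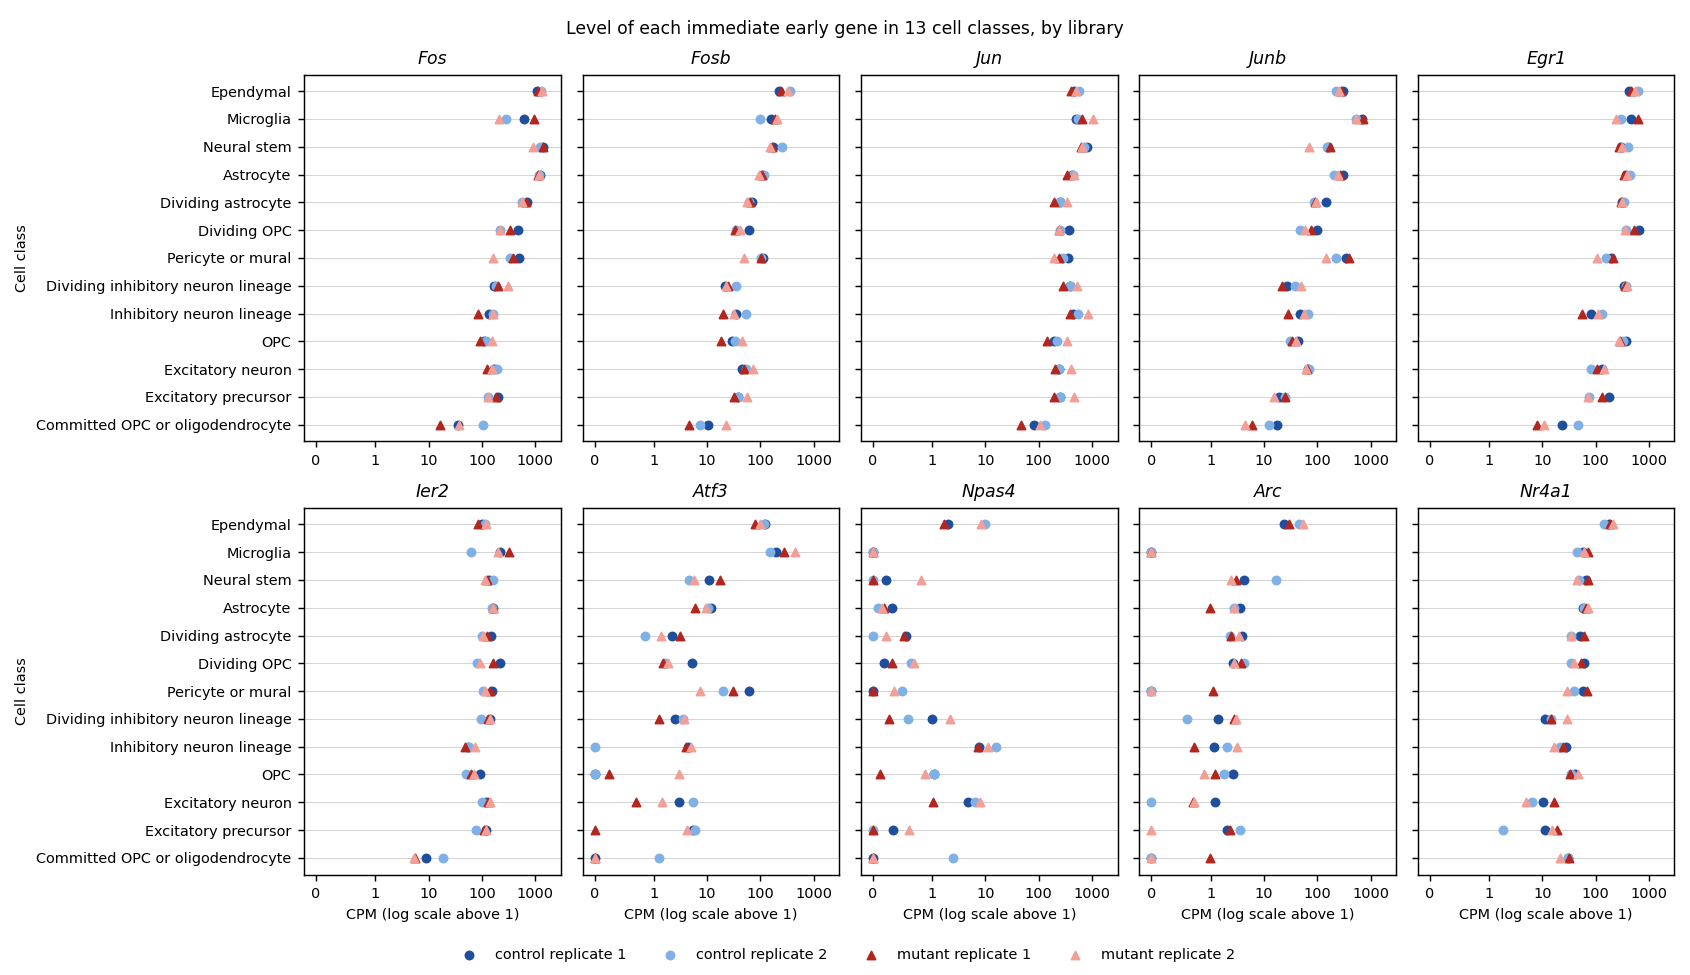
Level of each of the 10 genes (CPM of summed UMIs, linear below 1 and logarithmic above) in 13 cell classes, with 1 point per library and classes ordered by the mean summed level. Most genes run from high in ependymal cells, microglia, neural stem cells, and astrocytes to low in the committed oligodendrocyte class, while *Npas4* is highest in the inhibitory lineage and *Arc* in ependymal cells.

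*Fos* encodes the subunit that pairs with Jun proteins to form AP-1, a factor that binds the promoters of many later response genes. Its level was 1369, 1222, 1384, and 904 CPM in neural stem cells (mean 1219.8, SD 223), 1059, 1303, 1134, and 1328 in ependymal cells (mean 1206, SD 130.5), and 1213, 1169, 1121, and 1155 in astrocytes (mean 1165, SD 38.0). These 3 classes did not differ beyond their spread and formed a group above all other classes tested, except that microglia reached 933 CPM in mutant replicate 1 and so overlapped neural stem cells. Dividing astrocytes followed at a mean of 625 CPM (556 to 705), then pericytes at 343, dividing OPCs at 309, and dividing inhibitory lineage cells at 215. Pericytes, here and below, stand for the class of pericyte or mural cells. Microglia varied widely, with 613, 288, 933, and 208 CPM, high in both replicate 1 libraries and low in both replicate 2 libraries. In neurons *Fos* was low, with 133, 163, 83.6, and 159.7 CPM in the inhibitory lineage and a mean of 158 in excitatory neurons. OPCs were at 107, 120.3, 91.8, and 157 CPM, and the committed class at 34.9, 103, 16.2, and 37.9 (mean 47.9, SD 37.7).

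*Fosb*, a close relative that also pairs with Jun proteins, was highest among the classes tested in ependymal cells, at 225, 353, 239, and 327 CPM (mean 286, SD 63.4). Neural stem cells (mean 188) and microglia (164) came next, and the range of neural stem cells met that of ependymal cells. Astrocytes held 107 CPM (95.8 to 119), OPCs 31.6, dividing inhibitory lineage cells 26.0, and the committed class 11.3.

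*Jun*, the main partner of *Fos* in AP-1, spread more evenly. It reached 804, 694, 612, and 645 CPM in neural stem cells (mean 689, SD 84.0) and 498, 544, 644, and 1022 in microglia (mean 677, SD 238). The inhibitory lineage, low for *Fos*, was among the highest classes for *Jun* at 441, 535, 390.4, and 834 CPM (mean 550.1, SD 199), a range that overlapped those of neural stem cells and microglia. Ependymal cells (477), astrocytes (411), and dividing inhibitory lineage cells (393) lay next to it. The committed class again stood apart at 80.6, 129, 46.5, and 104 CPM, below the lowest OPC library (143).

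*Junb*, which also pairs with Fos proteins and is a weaker activator than *Jun*, was highest among the classes tested in microglia, the resident macrophages of the brain. Its level there was 686, 526, 719, and 544 CPM (mean 619, SD 97.7), above every library of every other class tested. Pericytes (280.2, 148 to 397), ependymal cells (266), and astrocytes (258, 206 to 306) overlapped each other. The lowest class held 17.3, 12.5, 5.99, and 4.41 CPM and was again the committed oligodendrocyte class.

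*Atf3* encodes a stress-induced factor of the CREB and ATF family that can pair with Jun. Among the classes tested it was highest in microglia, at 194, 153, 277, and 447 CPM (mean 268, SD 130.3, from 404, 34, 194, and 133 UMIs), and ependymal cells, at 123, 116, 79.7, and 96.8 CPM (mean 104, SD 19.6). The lowest microglial library lay above the highest ependymal library. Pericytes held 62.1, 20.3, 30.3, and 7.32 CPM, neural stem cells and astrocytes had means of 9.55 and 9.47, and every other class tested had a mean under 4. In OPCs the levels were 0, 0, 0.243, and 2.95 CPM, and the committed class held 1 UMI in all 4 libraries together.

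*Egr1*, a zinc-finger factor downstream of SRF, was shared by many classes. Its level was 425, 627, 454, and 557 CPM in ependymal cells (mean 516, SD 93.4) and 639, 377, 523, and 354 in dividing OPCs (mean 473), with high values in replicate 1 of the latter class. Microglia (403), astrocytes (387, 344 to 447), dividing inhibitory lineage cells (366), neural stem cells (324), OPCs (316, 280 to 376), and dividing astrocytes (315) followed, each overlapping its neighbour in this order, though not all of them reached the ependymal or dividing OPC range. *Egr1* thus had overlapping levels in OPCs and astrocytes, in which *Fos* stood at 119 and 1165 CPM. Pericytes (167), excitatory neurons (116), excitatory precursors (113), and the inhibitory lineage (95.4) formed a lower group. The committed class was lowest, at 23.9, 46.3, 7.99, and 10.6 CPM.

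*Nr4a1* encodes an orphan nuclear receptor whose activity is set mainly by its own induction. Ependymal cells held 181, 146, 186, and 209.8 CPM (mean 181, SD 26.2), above every library of every other class tested. Astrocytes (63.8, 57.9 to 71.1), microglia (58.7), and neural stem cells (57.9) followed, then OPCs at 38.9. For this gene the committed class was not the lowest: it held a mean of 28.2 CPM (21.1 to 31.3), the inhibitory lineage 22.6, and excitatory neurons, the lowest class, 9.56.

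*Ier2*, a small nuclear protein gene with 1 exon, was highest among the classes tested in microglia, at 214, 62.9, 319, and 202 CPM (mean 199), with a wide spread. Astrocytes held a steady 161 CPM (154 to 163, SD 4.37), dividing OPCs 137, neural stem cells 133, and ependymal cells 104. The committed class was at 9.66 CPM, below OPCs (68.2) and the inhibitory lineage (58.4).

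*Npas4*, a factor induced by calcium entry in neurons and by few other stimuli, was the least detected member, with 116, 73, 72, and 70 UMIs per library. It was highest in the inhibitory lineage, at 7.54, 15.9, 7.21, and 11.3 CPM (mean 10.5, SD 4.08, from 59, 24, 50, and 18 UMIs). Excitatory neurons held 4.66, 6.36, 1.06, and 7.86 CPM (mean 4.99), and ependymal cells, which are not neurons, 2.02, 9.71, 1.68, and 8.25 (mean 5.42, from 11, 31, 9, and 26 UMIs). The ranges of these 3 classes overlapped, and the ependymal values were high in replicate 2 and low in replicate 1 in both genotypes. Every other class had a mean of at most 1.02 CPM, astrocytes had 0.187, and microglia had 0 UMIs.

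*Arc* encodes a protein that acts at active synapses, where it promotes removal of AMPA receptors from the membrane. In these cells it was not highest in neurons. Ependymal cells held 23.9, 46.0, 29.0, and 54.6 CPM (mean 38.4, SD 14.4, from 130, 147, 155, and 172 UMIs), above every library of every other class tested. Neural stem cells followed at 4.21, 16.9, 2.99, and 2.42 CPM (mean 6.62), where control replicate 2 alone was high, then dividing OPCs (3.31) and astrocytes (2.49). Excitatory neurons, in which *Arc* is best known, had a mean of 0.662 CPM, and microglia held 0 UMIs.

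Within classes, the clusters were not uniform. In the inhibitory lineage, *Npas4* was at 19.9 CPM in the cluster led by *Epha6*, *Foxp2*, and *Cdh8* (385 cells) and at a like level in the cluster led by *Grm8*, *Adarb2*, and *Pbx3* (465 cells), against 2.47 in the largest cluster, led by *Dlx6os1* and *Gad2* (1273 cells). Among ependymal cells, a cluster led by the cilium genes *Lrrc23* and *Rsph1* (193 cells) held 54.9 CPM of *Arc* and 9.65 of *Npas4*. A cluster led by *Deup1*, *Cdc20b*, and *Ccno* (162 cells), genes of centriole amplification in cells that are forming cilia, held 5.84 CPM of *Arc* and 11.4 of *Atf3*, with a summed level of 1685 against 3760 in the cluster led by *Rarres2* and *Ccdc153* (310 cells). An astrocyte cluster led by *Gfap*, *Cidea*, and *Myoc* (140 cells) reached a summed level of 4425 CPM, with *Fos* at 2177. The largest cluster of a class was not the same in replicates 1 and 2 for astrocytes, the inhibitory lineage, OPCs, ependymal cells, excitatory neurons, and pericytes.

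The shares of cells followed a like order. Each cell was thinned at random to 2000 UMIs, so that depth did not set the share, and a cell counted where at least 1 UMI of the gene remained. *Fos* was found in 57.0% of astrocytes (exact 95% interval 55.5 to 58.5, 2347 of 4118 cells), 65.8% of ependymal cells (62.6 to 68.9), and 62.4% of neural stem cells (59.2 to 65.5). In OPCs the share was 15.6% (14.0 to 17.2), in the inhibitory lineage 15.3% (13.9 to 16.7), and in the committed class 5.38% (3.66 to 7.59). Intervals cover counting error only. Without thinning, at median depths of 14169 and 17588 UMIs, the shares in astrocytes and in the committed class were 81.4% and 22.9%, so the deeper class had the lower share. Free RNA can give such UMIs in any droplet. The share in the committed class was the lowest of the classes tested, and how much of it was free RNA was not measured.

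For the sparse members the shares stayed small even in the highest class. *Npas4* was found in 1.66% of the inhibitory lineage (1.22 to 2.22, 45 of 2706 cells), 0.768% of ependymal cells (0.309 to 1.58, 7 of 912), and 0.531% of excitatory neurons (0.173 to 1.23, 5 of 942). In astrocytes, which should lack it, the share was 0.0729% (0.0150 to 0.213, 3 of 4118 cells), and in microglia it was 0 of 264 cells, with an exact upper bound of 1.39% on cells with a UMI at this depth, not on cells that express the gene. Median depths before thinning were 6221 UMIs in the inhibitory lineage, 17918 in ependymal cells, and 14169 in astrocytes. *Arc* was found in 4.39% of ependymal cells (3.15 to 5.92, 40 of 912), 1.29% of neural stem cells (0.666 to 2.24), and 0.219% of astrocytes. *Atf3* was found in 24.6% of microglia (19.5 to 30.3), 13.8% of ependymal cells (11.6 to 16.2), and 0.0492% of OPCs (1 of 2031 cells).

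A cell often held several members. The mean number of members with a UMI per thinned cell was 2.89 in ependymal cells, 2.52 in microglia, 2.19 in neural stem cells, 2.06 in astrocytes, and 0.253 in the committed class. No member was found in 15.2% of ependymal cells and 23.0% of astrocytes but in 79.7% of the committed class, and 35.6% of astrocytes held 3 or more. Within a class, most pairs of members were associated: a member was found more often in cells that held the other than in cells that did not. Over 196 combinations of a gene pair and a class with enough cells, the share of cells with the one gene was higher among cells with the other in all 4 libraries in 146 and lower in all 4 in 4. In astrocytes *Fos* was found in 83.8% of cells with an *Egr1* UMI and 43.5% of cells without, and in ependymal cells in 84.9% and 49.2%. The same pair gave 35.1% and 13.1% in the inhibitory lineage and 20.9% and 12.3% in OPCs. Cells of a library share its preparation and differ in depth before thinning, so these shares are a description.

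**Figure D2:**
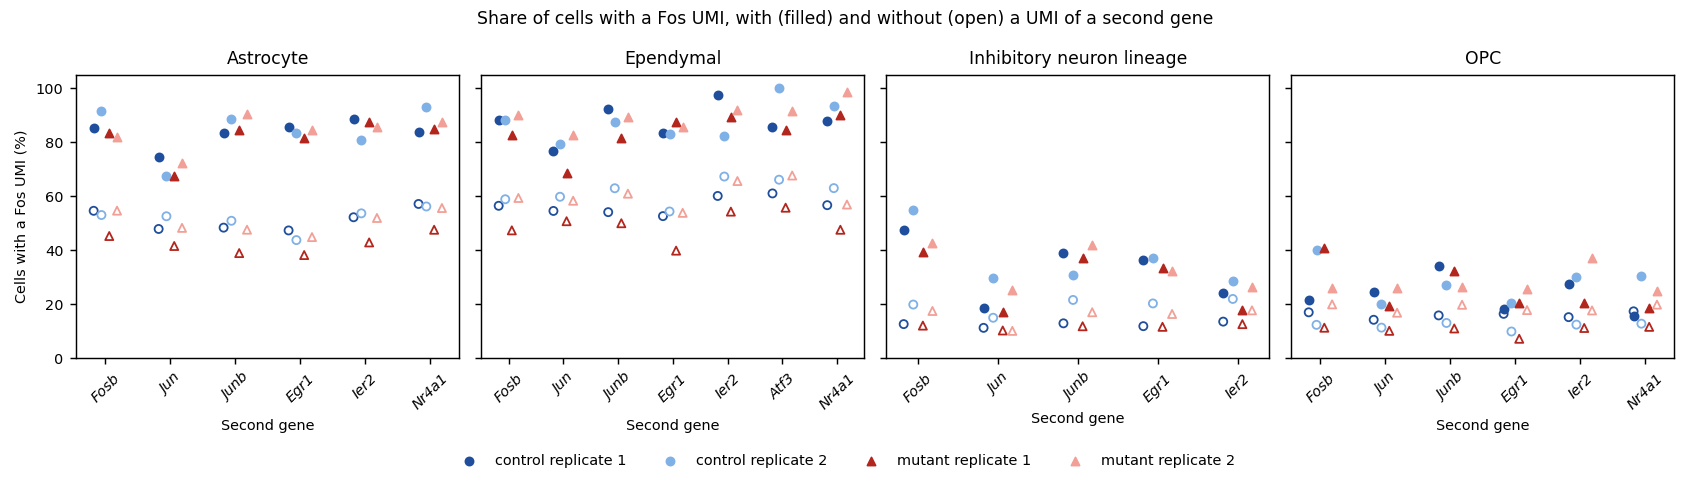
Share of cells with a *Fos* UMI (y axis, %) among cells with (filled) and without (open) a UMI of a second gene (x axis), in 4 cell classes after thinning to 2000 UMIs, with 1 point per library. In astrocytes and ependymal cells every filled point lies above the open points of its gene, while in OPCs the *Nr4a1* and *Egr1* points lie close together in some libraries.

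The measures of this co-detection differed by class and by pair. Levels and cell numbers differed too, with *Fos* at a mean of 1165 CPM in 4118 astrocytes and 119 in 2031 OPCs. Their part in these measures was not tested. Of the pairs with enough cells, 22 of 24 in astrocytes, 28 of 30 in ependymal cells, and 15 of 15 in neural stem cells were higher in all 4 libraries, against 13 of 24 in OPCs. Pearson correlations of log-normalized *Fos* and *Egr1* over single cells ran from 0.68 to 0.77 in astrocytes and 0.68 to 0.79 in ependymal cells, and from 0.26 to 0.38 in OPCs. *Junb* gave similar shares, with *Fos* in 86.1% of astrocytes that held it and 46.2% of those that did not. Other pairs gave like shares: in OPCs *Jun* was found in 28.8% of cells with *Nr4a1* and 28.9% without (r from −0.03 to 0.06), and in dividing inhibitory lineage cells *Fos* was found in 17.8% with *Jun* and 17.3% without.

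Across 52 sums, 1 per class and library, the members fell into looser pairs. The Pearson correlation of log2(CPM + 1), centred within each library, was 0.86 for *Fos* and *Fosb*, 0.85 for *Fosb* and *Junb*, 0.81 for *Egr1* and *Ier2*, and 0.81 for *Junb* and *Atf3*, and lowest for *Ier2* and *Nr4a1* at 0.17. The sums of a class share its cells' identity, so these values describe which classes express both genes. Over 10562 genes, those most like *Fos* were *Socs3* (0.90), *Pbxip1* (0.90), and *Smpdl3a* (0.89), and those most like *Jun* were *Dusp1* (0.82), a phosphatase that switches off MAP kinases, *Irf2bp2* (0.80), and *Jund* (0.77). The genes closest to *Egr1* were *Creb5* (0.83), *Smo* (0.81), and *Ier2* (0.81), those closest to *Ier2* were *Adgrl2* (0.83), *Smo* (0.83), and *Btg2* (0.82). *Fosb* was followed by *Zfp395* (0.89), *Tacc1* (0.89), and *Fnbp1* (0.88), *Junb* by *Ski* (0.93), *Asph* (0.90), and *Tacc1* (0.90), *Atf3* by *Ctsh* (0.89), *F11r* (0.88), and *Ppp1r15a* (0.88), and *Nr4a1* by *Fam173a* (0.84), *Slc30a1* (0.84), and *Tm9sf2* (0.83). *Npas4* and *Arc* lay under the minimum mean level of 5 CPM and were not compared.

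The study asked what midfetal loss of 1 *Chd8* copy does to these cells, and for the 10 genes no difference passed the test when the genotype was the only term. The UMIs of a class were summed in each library and tested in edgeR (quasi-likelihood fit), with Benjamini-Hochberg adjustment over every gene of the class, and a gene was called at an adjusted p under 0.05. Over the 10 genes and 13 classes, 108 gene-by-class combinations passed the filter on low counts. Of these, edgeR called 0, as for all genes (0.0% of 155201 gene-by-class tests), 3 had an unadjusted p under 0.05 (0.144% of all tests), and DESeq2 called 0 (0.00129% of all tests) with 2 under 0.05. In this fit, with 2 libraries per genotype and no term for the replicate, the median standard error was 0.375 on the log2 scale. Changes of that size were not detectable in it. Estimates leaned to lower levels in mutant cells: 67 of the 108 were negative (62.0%, median −0.10), against 49.8% of all tests (median 0.00). Without control replicate 1 this lean was gone, with 52 estimates negative, 54 positive, and a median of 0.036. That fit sets control replicate 2 alone against both mutant replicates, so genotype and replicate are mixed in it. The lean stayed without control replicate 2 (median −0.11), mutant replicate 1 (−0.14), or mutant replicate 2 (−0.17), in fits mixed in the same way.

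Summed over all cells, 9 of the 10 genes had a lower estimate in the mutant and 0 were called by edgeR (0.0% of all genes, 0 members with an unadjusted p under 0.05, and 0 by DESeq2). *Fos* was at 639, 698, 540.1, and 638 CPM, a log2 difference of −0.20 (SE 0.23), so that the highest mutant library lay just below the lowest control one. The other AP-1 members gave −0.30 (SE 0.28) for *Fosb*, −0.17 (0.28) for *Jun*, and −0.18 (0.22) for *Junb*, and *Atf3* gave −0.40 (0.29). *Egr1* gave −0.22 (0.23), *Ier2* −0.08 (0.22), *Npas4* −0.41 (0.54), and *Arc* −0.15 (0.51), while *Nr4a1* gave 0.09 (0.21). The sign of *Jun* turned without mutant replicate 1 (0.069), that of *Ier2* without control replicate 1 (0.015), and that of *Arc* without mutant replicate 1 (0.18) or control replicate 2 (0.31). Sums over all cells mix the makeup of a library with the level per cell, and in such sums fewer cells of a class and less RNA per cell cannot be told apart.

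The summed level of the 10 genes over all cells was 1817, 1882.5, 1493, and 1797 CPM, a mean log2 difference of −0.18 (−0.28 within replicate 1 and −0.07 within replicate 2; exact two-sided permutation p = 0.33, the smallest 2 against 2 libraries allow). Without mutant replicate 1, the lowest library, it was −0.04, and without mutant replicate 2 −0.31. Within classes, the differences in replicates 1 and 2 were −0.14 and −0.00 in astrocytes, −0.01 and −0.02 in ependymal cells, and −0.10 and −0.39 in neural stem cells. OPCs (−0.41 and 0.27), the inhibitory lineage (−0.33 and 0.31), and excitatory precursors (−0.22 and 0.50) had opposite signs in the 2 replicates. The committed class was lower in both (−0.79 and −0.77) and microglia were higher in both (0.39 and 0.55). In these 2 classes, and in astrocytes and neural stem cells, the groups did not overlap (exact permutation p = 0.33 for each). In the committed class they nearly met, at 206.52 CPM in control replicate 1 and 206.15 in mutant replicate 2.

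**Figure D3:**
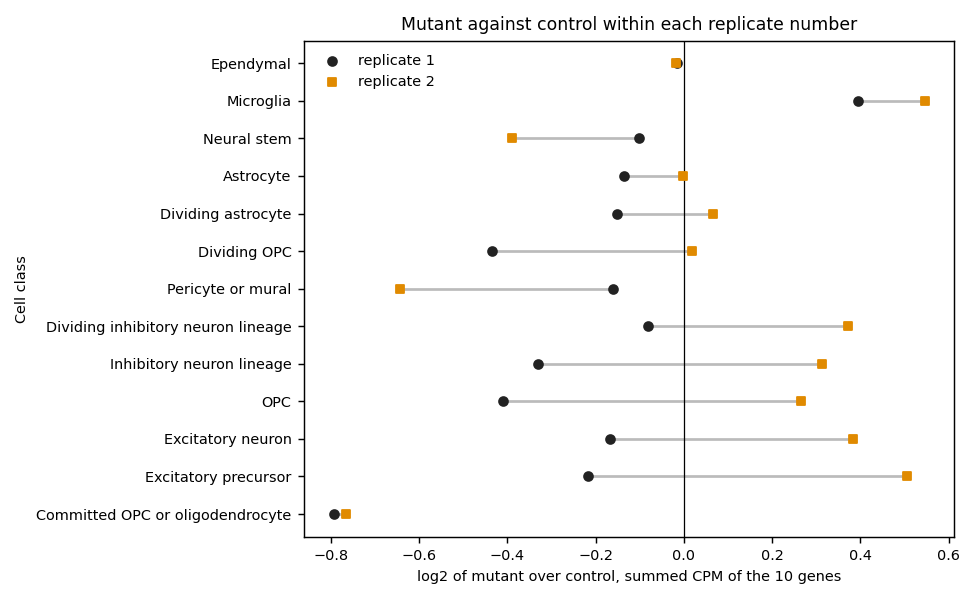
Log2 ratio of mutant to control in the summed CPM of the 10 genes (x axis) within replicate 1 (circles) and replicate 2 (squares), for 13 cell classes, with a line joining both. The committed oligodendrocyte class lies at −0.79 and −0.77 and microglia at 0.39 and 0.55, while 7 classes have opposite signs in the 2 replicates.

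By single gene, both mutant libraries lay below both control libraries in 20 of the 108 combinations (18.5%, against 7.16% of all gene-by-class tests) and above them in 10 (9.26%, against 8.36%). Mutant was lower than control within both replicates in 38 (35.2%, against 23.7%) and higher in 19 (17.6%, against 25.0%). The member genes are not independent of each other, since in most pairs a member was found more often in cells that held the other. Classes with a negative estimate numbered 10 of 13 for *Egr1*, 9 of 13 for *Fos*, *Fosb*, and *Junb*, 7 of 13 for *Ier2*, 6 of 13 for *Jun*, and 5 of 13 for *Nr4a1*. *Atf3* was negative in 5 of 8 classes that passed the filter, *Arc* in 4 of 6, and *Npas4* in 3 of 3.

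Since the replicate number also marks the software version, the fit was repeated with the replicate number as a block. It called 3 of the 108 combinations (2.78%, against 0.0528% of all gene-by-class tests), and 28 had an unadjusted p under 0.05 (25.9%, against 3.75%). The median standard error of the members was 0.193 on the log2 scale in this fit, and 69 estimates were negative (63.9%, against 50.1% of all tests). *Egr1* fell in the committed oligodendrocyte class by 1.75 on the log2 scale (SE 0.32, edgeR adjusted p = 0.0092), *Fos* fell there by 1.23 (SE 0.24, edgeR adjusted p = 0.018), and *Atf3* rose in microglia by 0.92 (SE 0.25, edgeR adjusted p = 0.047). Without the block these were −1.89 (SE 0.49, unadjusted p = 0.012 in edgeR) for *Egr1*, −1.34 for *Fos*, which was not called, and 1.04 (SE 0.39, unadjusted p = 0.033 in edgeR) for *Atf3*.

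In the committed class the 2 called genes rested on few counts. *Egr1* had 69, 37, 40, and 12 UMIs in 169, 43, 288, and 58 cells, and both mutant libraries (7.99 and 10.6 CPM) lay below both control libraries (23.9 and 46.3). *Fos* had 101, 82, 81, and 43 UMIs, and mutant replicate 2 (37.9 CPM) lay above control replicate 1 (34.9), so its groups overlapped. In the fit without the block, the *Fos* estimate was −0.36 without control replicate 2, −0.79 without mutant replicate 1, and −2.04 without mutant replicate 2, while *Egr1* stayed between −2.33 and −1.35. *Junb* was lower too, at −1.49 with the block (edgeR adjusted p = 0.42), as were *Ier2* (−1.04) and *Jun* (−0.56), none of which was called. *Fosb* and *Nr4a1* did not follow. Within replicates 1 and 2 the log2 difference was −1.18 and 1.61 for *Fosb* and 0.04 and −0.51 for *Nr4a1*. The class had 10 of 10618 genes called with the block (0.0942%), all lower in the mutant: *Egr1* and *Fos* themselves, *Slc1a2*, *Tnc*, *Sparcl1*, *Ptn*, *Apoe*, *Htra1*, *Hist1h1e*, and *Slc1a3*. Several of these are astrocyte genes, such as the glutamate transporters *Slc1a2* and *Slc1a3*, and in astrocytes *Apoe* was at 13979 CPM.

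Astrocyte markers were also lower in the mutant in this class. All 7 astrocyte markers were detected in the committed class, and their summed level there was 161 and 254 CPM in control and 77.5 and 115 in mutant, against 6890 to 7463 in astrocytes. Pericyte markers were at 3.11, 103, 3.79, and 14.1 CPM. Among the cells with 0 or 1 UMI of the astrocyte markers (137, 20, 248, and 24 cells), *Fos* was at 28.1, 34.4, 14.0, and 44.7 CPM and *Egr1* at 19.9, 3.12, 8.05, and 5.59. Neither gene separated the genotypes there over both replicates. In the same cells *Junb* did, at 12.2, 12.5, 4.26, and 0 CPM (27, 4, 18, and 0 UMIs), and the summed level of the 10 genes was 178, 253, 116, and 184 CPM, lower in the mutant within both replicates though the groups overlapped. Within replicate 1, *Fos* (62 and 59 UMIs) and *Egr1* (44 and 34 UMIs) were also lower in the mutant in these cells. The overlap came from replicate 2, where *Fos* rests on 11 and 16 UMIs and *Egr1* on 1 and 2. Among the cells with 2 or more (32, 23, 40, and 34 cells), *Fos* was at 57.3, 148, 28.0, and 34.7 CPM and *Egr1* at 36.7, 75.1, 7.63, and 12.9, and the genotypes did not overlap for either gene. This split was chosen after the data were seen. It also follows depth, with median UMIs per cell of 13259 to 17233 in the cells with 0 or 1 and 20266 to 24174 in those with 2 or more. The part of astrocyte RNA in the difference was not tested.

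**Figure D4:**
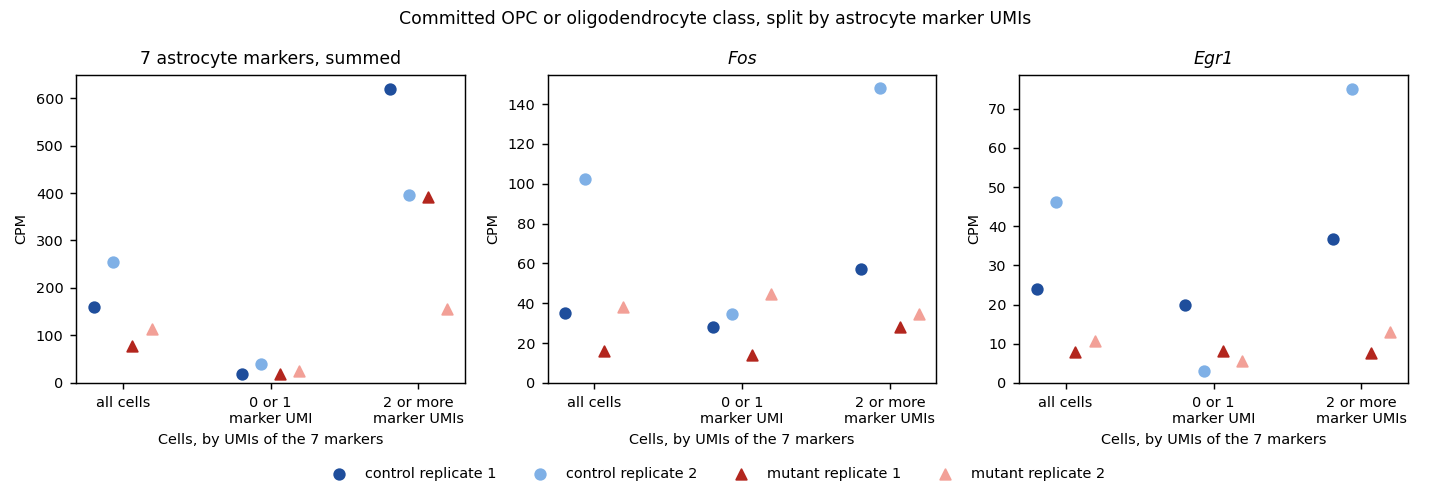
Summed level of 7 astrocyte markers, *Fos*, and *Egr1* (CPM, linear axes) in the committed oligodendrocyte class, for all its cells and for cells with 0 or 1 and with 2 or more astrocyte marker UMIs, with 1 point per library. In cells with 0 or 1 marker UMI the control and mutant points overlap for both genes (*Fos* 28.1 and 34.4 against 14.0 and 44.7), while in cells with 2 or more all control points lie above the mutant ones.

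Microglia were the class in which mutant libraries were higher. Whether these cells carried a recombined *Chd8* allele was not tested. *Atf3* was at 194 and 153 CPM in control and 277 and 447 in mutant, from 150, 23, 51, and 40 cells, and the groups did not overlap. The class held 2 clusters, with *Atf3* at 189 and 307 CPM, and 90.0% of the cells of control replicate 1 lay in the cluster with the lower level while 69.6%, 74.5%, and 52.5% of those of control replicate 2, mutant replicate 1, and mutant replicate 2 lay in the other. Without mutant replicate 2 its estimate was 0.58, against 1.04 with all libraries. *Ier2* also had a positive estimate (0.90 with the block, edgeR adjusted p = 0.10). With the block 41 of 6856 genes were called in microglia (0.598%), 35 of them higher. They included the inflammatory genes *Il1a*, *Gpr84*, *Cxcl2*, and *Cxcl10* and the NF-kappaB inhibitor *Nfkbia*, which was at 313 and 189 CPM in control and 583 and 393 in mutant (log2 difference 0.94, edgeR adjusted p = 0.032). They also included genes high in mutant replicate 1 alone, such as *Sox2ot* at 38.8, 13.5, 461, and 6.72 CPM. In this class the markers of some other cell types were highest in that library. The inhibitory lineage markers summed to 64.2, 8.98, 189, and 16.8 CPM. The excitatory markers summed to 52.9 there against 0 in mutant replicate 2, and the pericyte markers to 301 against 10.1. Other lists were not highest there: astrocyte markers summed to 272, 508, 337, and 259 CPM and oligodendrocyte markers to 68.5, 103, 72.9, and 47.1. The part of such RNA in the difference was not tested.

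Differences between the replicates were more numerous than those between genotypes. Comparing replicate 2 with replicate 1 at a fixed genotype, edgeR called 34 of the 108 combinations (31.5%), close to the background of all genes (32.5%), 16 higher and 18 lower in replicate 2, and DESeq2 called 10 (11.9% of all tests). The direction depended on the class. In ependymal cells *Npas4* was higher in replicate 2 by 2.29 on the log2 scale (SE 0.44, edgeR adjusted p = 6.3e-05) and *Arc* by 0.95 (SE 0.19, edgeR adjusted p = 0.00014). *Fosb* (0.58) and *Egr1* (0.45) were also called higher there. In the inhibitory lineage *Egr1* (0.70), *Junb* (0.60), *Jun* (0.57), *Fosb* (0.55), and *Fos* (0.49) were all higher in replicate 2. The committed class had higher *Fos* (1.43, SE 0.24, edgeR adjusted p = 4.3e-05) and *Jun* (0.95) in replicate 2.

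Other classes went the opposite way. In microglia *Fos* (−1.52, SE 0.26, edgeR adjusted p = 1.2e-07), *Ier2* (−0.99), and *Egr1* (−0.87) were lower in replicate 2. Dividing OPCs had lower *Ier2* (−1.10), *Fos* (−0.88), *Junb* (−0.75), *Egr1* (−0.68), and *Nr4a1* (−0.61), and *Atf3* was lower in pericytes (−1.72) and neural stem cells (−1.48). Of the pericyte class, 85.7% and 84.1% of replicate 1 cells lay in the cluster led by *Acta2*, *Tagln*, and *Mgp* (*Atf3* 47.1 CPM). In replicate 2, 63.9% and 68.2% lay in the cluster led by *Rgs5*, *Higd1b*, and *Vtn* (*Atf3* 3.63 CPM). The part of this shift in the difference was not tested. Over all cells, the summed level was higher in replicate 2 by 0.05 in control and 0.27 in mutant, and with the UMIs of 1665 genes with little intronic sequence as the denominator it was lower, by −0.19 and −0.06. The sign of the replicate difference over all cells therefore depends on how intronic counts enter the total, and preparation, software version, and mice cannot be told apart.

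The level also varied with the mitochondrial share of the cells, a sign of cell condition. In astrocytes with 0 to 2.5% mitochondrial UMIs the summed level was 4287, 5439, 3771, and 4464 CPM of non-mitochondrial UMIs, the value of control replicate 2 from 27 cells. It was 2308, 3493, 2277, and 3153 at 2.5 to 5% and 1956, 2562, 1842, and 2449.6 at 5 to 10%, a fall in every library. Within each bin of astrocytes, both replicate 2 libraries lay above both replicate 1 libraries, whereas over all astrocytes the replicates overlapped. Ependymal and inhibitory lineage cells showed no common direction across the bins. Whether depth, cell maturity, or damage moves with these bins was not tested.

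**Figure D5:**
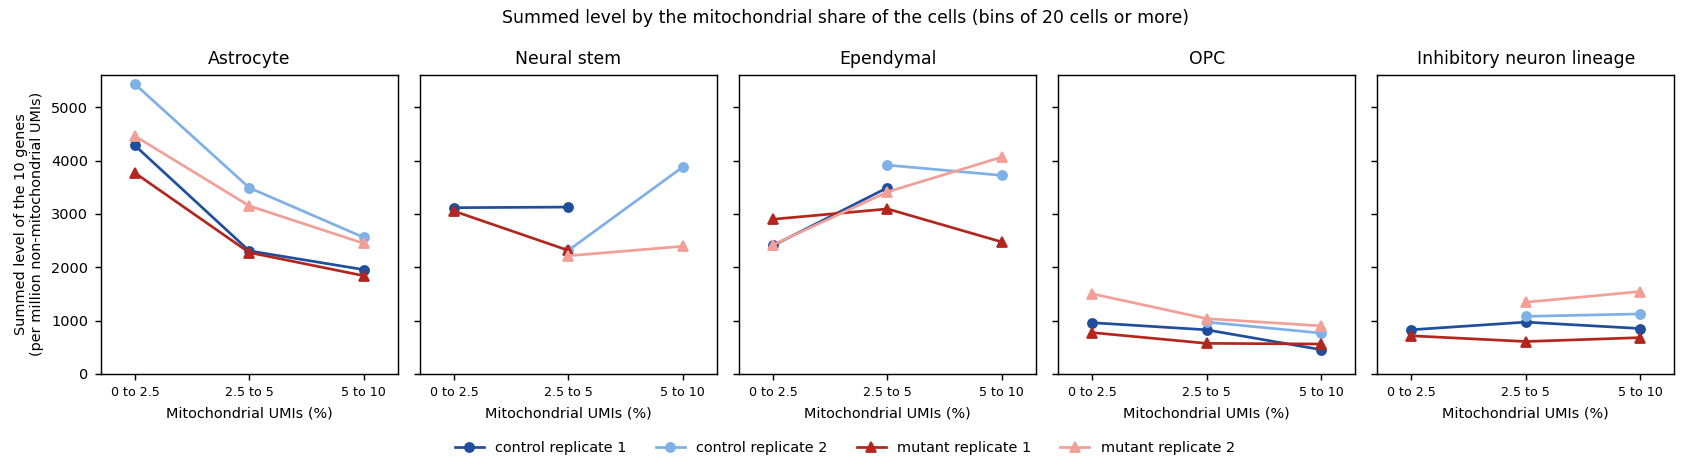
Summed level of the 10 genes (y axis, CPM of non-mitochondrial UMIs) by the mitochondrial share of the cells (x axis, 3 bins in %), in 5 classes, with a line per library and bins of 20 cells or more. In astrocytes all 4 lines fall from the lowest to the highest bin (4287 to 1956 in control replicate 1), and in ependymal and inhibitory lineage cells they share no direction.

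Other genes of the response were read from lists. Among 29 other immediate early genes (the most abundant being *Gadd45g* and, at 454, 125, and 101 CPM over all cells, *Jund*, *Rhob*, and *Klf6*), 0 of 288 tests were called by edgeR for genotype and 2 had an unadjusted p under 0.05. The 15 feedback inhibitors, which switch the response off (*Zfp36l1*, *Btg1*, *Btg2*, and *Dusp1* at 325, 249, 210, and 89.1 CPM), gave 0 of 163, with 3 under 0.05, and with the block 1, *Nfkbia* in microglia. The 26 upstream genes of the SRF, CREB, and MAPK pathways (among them *Crebbp*, *Map2k2*, and *Mef2c* at 154, 118, and 107 CPM) gave 0 of 323 with 0 under 0.05, and the 16 later response genes (*Plat*, *Cdkn1a*, *Homer1*, and *Cpeb3* at 109, 58.0, 44.1, and 35.1 CPM) gave 0 of 114 with 1 under 0.05. The median log2 differences of these 4 lists were between 0.01 and 0.07. Over all gene-by-class tests, 0.0% were called without the block and 0.144% had an unadjusted p under 0.05. With the block, 0.0528% of all tests were called, against 0.61% of those of the feedback inhibitors.

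Between replicates, 32.5% of all gene-by-class tests were called, 20.1% lower and 12.4% higher in replicate 2, and the lists are read against these shares. Of the upstream genes, 129 of 323 tests were called (39.9%), 118 of them lower in replicate 2, and of the other immediate early genes 77 of 288 (26.7%), 56 of them lower. The feedback inhibitors had 44 of 163 called (27.0%) and the later response genes 38 of 114 (33.3%), so these 3 lists lay near or below the share of all genes. The 14 heat shock genes (*Hsp90ab1*, *Hsp90aa1*, *Hspa8*, and *Hspa5* at 1974, 1232, 974, and 400 CPM), which respond to cell stress, had 72 of 165 called (43.6%), 68 of them higher in replicate 2. Their summed level over all cells was 5222, 6643.5, 4735, and 6591 CPM, high in both replicate 2 libraries. For genotype, 0 of their 165 tests were called by edgeR and 0 had an unadjusted p under 0.05. Their estimates leaned to lower levels in mutant cells, as those of the members did. Of the 165, 108 were negative without the block (median −0.05) and 114 with it (median −0.07). The lean was therefore not confined to the members.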

How the data were processed

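Single-cell RNA sequencing (10x Genomics 3′ kit, version 3.1) measured 2 control and 2 mutant libraries. The authors deposited gene-by-barcode counts of unique molecular identifiers, unnormalized, mapped to mm10; the matrix headers name Cell Ranger 7.0.0 (replicate 1) and 5.0.1 (replicate 2), while the submitters' processing notes name 3.0. Version 7.0.0 counts intronic reads by default and 5.0.1 does not, so genes with long introns gain counts in replicate 1. *Jun* and *Ier2* have 0 intronic bases and most other members few, but *Atf3* and *Nr4a1* have 45590 and 17018.

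Following the study's methods, a barcode was kept where its UMIs numbered 2000 to 40000, its detected genes 1000 or more, and its mitochondrial share was 10% or less. Counts were scaled within each library, clustered on 2000 variable genes (30 principal components, 15 neighbours, Leiden resolution 1; scanpy 1.11.5, leidenalg 0.10.2) without the members, the other immediate early genes, or the heat shock genes, and clusters were named from marker lists. Each named class was detected with at least 3 of its own markers. Scrublet (expected rate 0.05) marked 0.202% to 2.79% of the cells of a library; under 0.5% in control replicate 2, it did not work there, and marked cells were kept, with removal as an alternative.

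UMIs were summed per class and library and tested with edgeR 4.0.16 (TMM, filterByExpr, quasi-likelihood) in R 4.3.3, since cells of a library are not replicates; nothing says which mice were littermates, so p-values measure the spread between pooled libraries. The fit was checked on simulated counts. Alternatives were DESeq2 1.42.0, library totals, other filters, and each library left out. Replicate numbers pair the libraries: deviations of same-numbered libraries from their group means correlated at 0.606 to 0.897 over genes in the 13 classes, and the software version follows the number, so block values stand beside the results they change.

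All 10 members are named, with the 4 most abundant genes of each other list, any list gene called for genotype, and, for likeness, the 3 genes best correlated with each member of at least 5 CPM, among genes of at least 10 CPM. Clusters, genes called beside a member, and the astrocyte marker split were chosen after their values were seen. A few items that these rules name are not reported here. Members and lists were chosen with earlier results of these data known.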

Additional observations from a re-analysis of the deposited data

Results flagged for a closer look

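The mutant difference in the summed level of the 10 genes was positive within both replicates in microglia and negative within both in 5 other classes. On the log2 scale the microglial difference exceeded that in astrocytes by 0.54, that in the committed oligodendrocyte class by 1.25, that in ependymal cells by 0.486, that in neural stem cells by 0.716, and that in pericytes by 0.872. These differences between classes were not tested, and in astrocytes and ependymal cells the difference itself was close to 0 in at least 1 replicate (−0.00 and −0.01).

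Barcodes that met the limits on UMIs and genes but held more than 10% mitochondrial UMIs still held the 10 genes. Their summed level, in CPM of non-mitochondrial UMIs, was 866.1 (158 barcodes) and 1544 (872) in replicates 1 and 2 of the control and 1060 (257) and 1536 (886) in those of the mutant. The kept cells of each library held more, at 1865, 1999, 1537, and 1892. Not every gene followed: *Npas4* was at 0, 7.26, 5.87, and 4.54 in removed barcodes against 1.62, 2.08, 1.03, and 1.78 in kept cells, *Fosb* was also higher in removed barcodes in all libraries but control replicate 1 (125, 75.2, and 151 against 117, 73.3, and 94.1), and *Junb* was in control replicate 2 (159.7 against 152). The *Npas4* values in removed barcodes rest on few UMIs, and which cell classes these barcodes came from was not tested.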

How the results depend on the processing

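No genotype call was made among the members in the other settings run without a block and with every library kept (0 of 89 to 128 combinations). The replicate block made 3 of 108. In edgeR it also called *Nfkbia* and the other genes named as called in microglia and the committed class. The edgeR fit without it called none of them. The replicate comparison gave 34 of 108 in edgeR and 10 in DESeq2, and 25 to 38 in the other settings; leaving out libraries was not run there, since it leaves no residual degrees of freedom. The summed level over all cells differed by −0.18, and by −0.31 to −0.04 with each library left out. A replicate block cannot change the mean difference over all libraries, since every replicate holds both genotypes equally. Other settings gave −0.24 (genes with little intronic sequence as denominator, added after seeing the data) to −0.12 (equal weight per class). The astrocyte difference over OPCs in the summed level was 1.62, 1.38 without library correction in the clustering, 1.54 to 1.70 with a library left out, and at most 1.79 otherwise. The share of astrocytes with a *Fos* UMI was 57.0% thinned to 2000 UMIs, 69.8% at 4000, and 81.4% unthinned, which follows from depth. In all cells, the signs that turned with a library left out were those of *Jun* (−0.46 to 0.069), *Ier2* (−0.16 to 0.015), and *Arc* (−0.57 to 0.31, and 0.18 without mutant replicate 1); the cause was not tested. The highest class was compared in 4 settings: the main clustering, Leiden resolution 2, no library correction, and a 5% mitochondrial limit on the main classes. It stayed the same in all 4 for *Arc*, *Egr1*, *Fosb*, *Npas4*, and *Nr4a1*. *Fos* moved to ependymal cells without library correction and to astrocytes under the 5% limit, and *Jun* to microglia without library correction. *Junb*, *Ier2*, and *Atf3* moved under the 5% limit, where microglia had too few cells. Depth limits *Npas4* and *Arc*, and few cells limit microglia and the committed class.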

Other observations

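Classes with under 20 cells in some library were not tested, but their levels add to the picture of the 10 genes. Border macrophages, the macrophages of the meninges and vessels (98 cells), had a summed level of 3890.1 CPM, above the mean of every class tested. *Jun* was at 1088 CPM there (1008 to 1158), *Fosb* at 303, *Ier2* at 322, and *Nr4a1* at 292, while *Fos* varied widely, at 1731, 455, 989, and 609 CPM in control 1, control 2, mutant 1, and mutant 2. *Junb* was at 488 CPM there (346 to 590), a range that overlapped that of microglia. *Atf3* was at 170.5 CPM (155 to 191), so the other macrophage class also expressed this gene, as did fibroblasts, at 93.2, 147, 18.8, and 197.9.

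Vascular and barrier cells differed among themselves. Endothelial cells (166 cells) had *Junb* at 398 CPM and *Ier2* at 251, with a summed level of 1493 CPM, and fibroblasts (103 cells) had *Fos* at 766 CPM and a summed level of 2359. Choroid plexus cells (25 cells), which line the same ventricles as ependymal cells, had a summed level of 253 CPM, near that of the committed oligodendrocyte class.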
